A study of Mus musculus with 54 samples.

Results

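Ageing on normal chow was followed in the mouse aorta by setting 40 weeks against week 0 in 2 inbred strains, C57Bl/6 (C57) and C3H/HeJ (C3H). The 12 arrays were chosen by their labels from 54 in all. They were 3 arrays of C57 and 3 of C3H at week 40 on chow, and 3 of each strain at week 0. Week 40 minus week 0 was averaged over the strains, so that a change had to show in their mean. The whole study took aorta RNA of both strains at week 0, and at weeks 4, 8, 24 and 40 of either chow or a high-fat diet. By their titles the arrays form 18 groups, each of 3. Every array carried total RNA of mouse embryos in its second channel, so each value is a ratio between aorta and this common reference. No group carries an engineered allele or a drug according to the labels, and the age of the mice at week 0 is not given in the sources used here.

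The aorta is the large artery that leaves the heart. Its wall holds an inner layer of endothelial cells, a middle layer of smooth muscle cells between elastic sheets, and an outer layer of fibroblasts, often with fat attached. With age the wall of large arteries is known to thicken and stiffen. C57 mice are known to form fatty lesions of the aorta on a high-fat diet and C3H mice to resist them, which makes chow the setting in which both strains age without that challenge. In bulk RNA, fewer cells of a type and less RNA per cell cannot be told apart. The labelled tissue could not be checked against marker genes, because the gene names listed for the array were not borne out by the values. Among 1096 pairs of features listed under 1 symbol, the mean ratios correlated at -0.02 and the week 40 minus week 0 changes at 0.03. Array features are therefore given by their number, without gene names or roles.

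All levels are deposited log ratios after centring of each array on its median, in the sign of the deposited table. Neither the direction of the ratio nor the base of the logarithm is given in the sources used here. Base 10 is likely, since values stop at exactly 2 and -2. If the direction were the other way, every sign below would turn. Of 21446 features, 21179 were tested. Exact zeros, which numbered 54 to 281 per array, were taken as not measured. Across features, the SD of an array's log ratios was 0.237 to 0.281 on 11 of the 12 arrays and 0.174 on replicate 1 of C57 at week 40, 1 of 5 arrays in the study below 0.2. The replicate number was visible across the study: the 18 arrays numbered 3 scored -14.3 to -7.31 on the first principal component (29.1% of the variance) and the other 36 scored -4.26 to 15.8. The number is balanced over groups and was a term of each fit below unless stated otherwise. The labels do not state if a group's arrays stand for separate animals, so p-values cover only array-to-array spread, which may be technical.

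Over 40 weeks on chow, 307 features changed in the mean of both strains, which is 1.45% of the 21179 tested. Of these, 217 fell (1.02%) and 90 rose (0.425%), at an adjusted p under 0.05 in limma with Benjamini-Hochberg adjustment. The median size of a called change was 0.168 and the range 0.0648 to 0.871. Among the 43 called changes larger than 0.3, 36 were falls and 7 were rises. The median change over all features was -0.00274, near 0 as centring makes it. With no replicate term the count was 49, 10 higher and 39 lower, and all 49 were among the 307, whereas array weights gave 1513 calls and the comparison's own 12 arrays gave 173. Quantile normalization gave 384 calls, of which 49.2% were higher, against 29.3% in the fit reported here, so the excess of falls over rises depends on the scaling. Leaving out 1 array at a time gave 192 to 316 calls, and the lowest count, 59 higher and 133 lower, came without replicate 1 of C3H at week 0.

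The falls were led by feature 299. At week 0 it read 0.25, 0.24 and 0.04 in replicates 1, 2 and 3 of C57, and 0.39, 0.14 and 0.05 in C3H. At week 40 it read -0.48, -0.49 and -0.69 in C57, and -0.38, -0.36 and -0.58 in C3H. All 6 early arrays lay above 0 and all 6 late arrays below it, with no overlap. The difference was -0.68 (SE 0.0505, limma adjusted p 2.41e-12), which would be a 4.79-fold fall if the base is 10.

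Feature 11462 started higher and stayed above 0. It read 0.93, 0.92 and 0.77 in C57 and 0.92, 0.81 and 0.75 in C3H at week 0. At week 40 it read 0.21, 0.20 and 0.08 in C57 and 0.32, 0.20 and 0.10 in C3H. The strains lay on top of each other at both times, and early and late arrays did not overlap. The difference was -0.66 (SE 0.0419, limma adjusted p 5.18e-14).

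Feature 2868 fell by 0.63 (SE 0.0441, limma adjusted p 6.83e-13). It started at 0.77, 0.86 and 0.51 in C57 and 0.96, 0.89 and 0.59 in C3H. It ended at 0.30, 0.11 and -0.08 in C57 and 0.27, 0.20 and -0.03 in C3H. Replicate 3 was the lowest array of each of these groups, yet every late array lay below every early one.

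Feature 6247 had the smallest SE of the 12 largest falls. It read 0.43, 0.48 and 0.45 in C57 and 0.51, 0.52 and 0.54 in C3H at week 0, and -0.02, 0.00 and 0.03 in C57 and 0.08, 0.03 and 0.13 in C3H at week 40. The mean went from 0.49 ± 0.04 (SD, n = 6) to 0.04 ± 0.06 (SD, n = 6), close to the median feature of the array. Its difference of -0.45 had an SE of 0.0237 and a limma adjusted p of 3.11e-16.

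Features 22451 and 1087 show that falls ran from very different starting levels. Feature 22451 read 1.39, 1.33 and 1.23 in C57 and 1.36, 1.33 and 1.20 in C3H at week 0, and 0.73, 0.90 and 0.74 in C57 and 0.84, 0.79 and 0.78 in C3H at week 40. Feature 1087 read -0.90, -0.80 and -0.71 in C57 and -0.71, -0.85 and -0.74 in C3H at week 0, and -1.35, -1.43 and -1.18 in C57 and -1.36, -1.26 and -1.22 in C3H at week 40. Feature 22451 moved toward the reference and feature 1087 away from it, each without overlap of early and late arrays. Their differences were -0.51 (SE 0.0781) and -0.52 (SE 0.0482), with limma adjusted p of 5.38e-05 and 1.14e-09.

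The other 6 of the 12 largest falls were features 4153 (-0.58), 22474 (-0.55), 6685 (-0.55), 15762 (-0.52), 1491 (-0.47) and 6999 (-0.47). Early and late arrays did not overlap in 5 of them. In feature 6685 they did, because replicate 3 of C57 at week 0 read 0.10 while replicate 1 of C3H at week 40 read 0.15.

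The rises were led by feature 20060, the largest change of any feature. It read 0.17, 0.15 and -0.07 in C57 and -0.32, -0.13 and -0.27 in C3H at week 0. At week 40 it read 0.41, 1.01 and 0.90 in C57 and 0.83, 0.86 and 0.75 in C3H. The lowest late array, replicate 1 of C57 with the small spread of log ratios, still lay above the highest early one. The difference was 0.87 (SE 0.101, limma adjusted p 2.15e-07), which would be a 7.44-fold rise if the base is 10.

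Feature 4202 read 0.27, 0.34 and 0.00 in C57 and 0.28, 0.38 and -0.08 in C3H at week 0, and 0.51, 0.84 and 0.73 in C57 and 0.96, 0.65 and 0.57 in C3H at week 40. Feature 4411 read 0.38, 0.31 and 0.06 in C57 and 0.29, 0.50 and 0.03 in C3H at week 0, and 0.57, 0.90 and 0.71 in C57 and 0.65, 0.75 and 0.72 in C3H at week 40. Feature 2787 read 0.40, 0.52 and 0.32 in C57 and 0.49, 0.55 and 0.27 in C3H at week 0, and 0.82, 0.86 and 0.66 in C57 and 0.92, 0.79 and 0.76 in C3H at week 40. In each of the 3 the late arrays lay above the early ones without overlap, by a mean of 0.51 (SE 0.0891), 0.45 (SE 0.0717) and 0.38 (SE 0.0723). Their limma adjusted p were 0.000435, 8.48e-05 and 0.00177. With no replicate term features 4202 and 2787 did not pass (limma adjusted p 0.0877 and 0.0766), nor did feature 2787 without replicate 2 or 3 (0.0558 and 0.0745).

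The other 8 of the 12 largest rises were 0.26 to 0.42. Early and late arrays did not overlap in features 10890, 7950 and 7816. They overlapped in features 20179, 21273, 10845, 9529 and 8106. In feature 8106 the overlap came from a level that differed between strains: C57 read 0.04, 0.10 and 0.17 at week 0 and 0.29, 0.40 and 0.44 at week 40, and C3H read 0.42, 0.33 and 0.37 and then 0.63, 0.60 and 0.69. Within each strain the groups did not overlap, and the strains moved by 0.27 (C57, SE 0.0743) and 0.27 (C3H, SE 0.0743). Features 20179 and 9529 were the least secure of the rises, with limma adjusted p of 0.0483 and 0.0407. They passed the threshold in 10 and 11 of 28 alternative analyses.

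**Figure D1:**
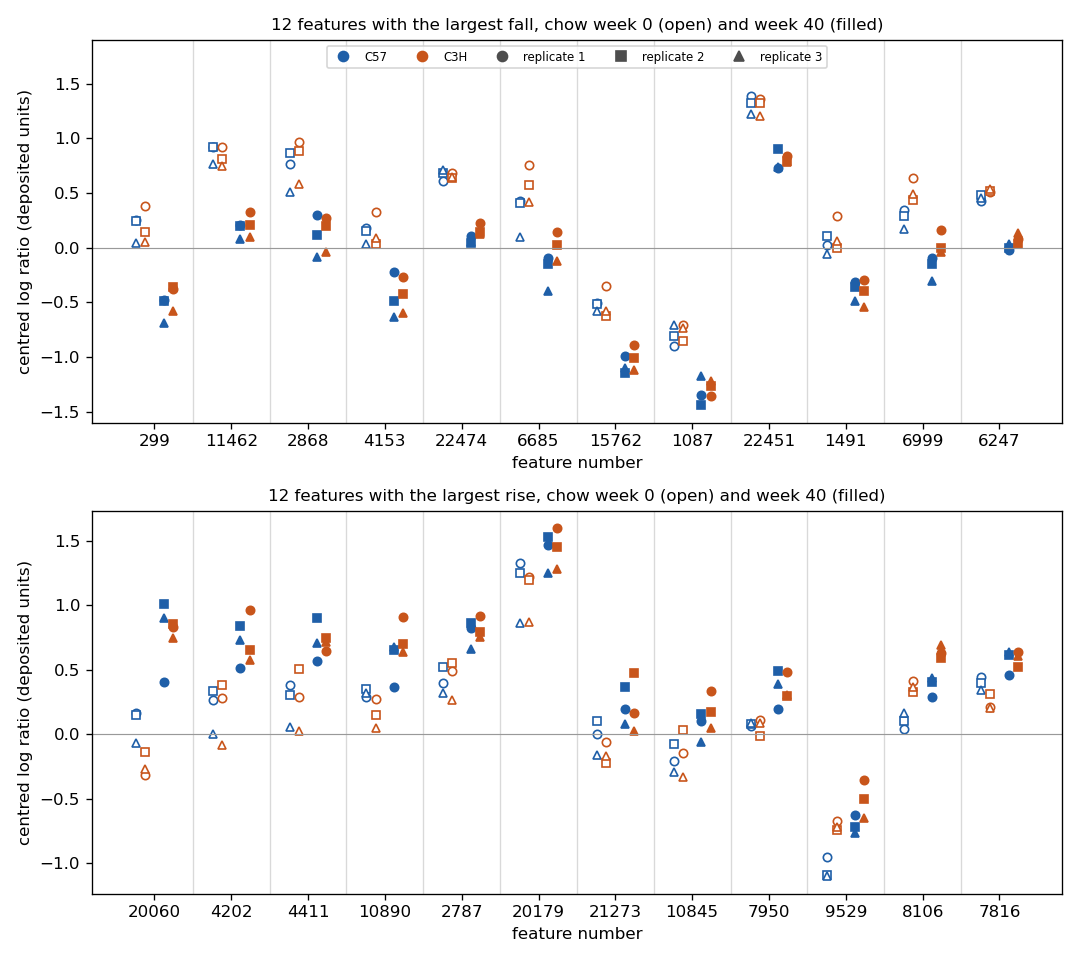
Centred log ratio (vertical axis, deposited units) of the 12 features with the largest falls (top) and the 12 with the largest rises (bottom) on each of the 12 arrays. Open symbols are week 0 and filled symbols week 40, blue is C57 and orange C3H, and the marker shape gives the replicate; in 18 of the 24 features no late array overlaps an early one.

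Over all 307 called features, the 6 late arrays lay wholly on one side of the 6 early ones in 68, which were 51 falls and 17 rises. Among all features tested this held for 110, or 0.519% (0.331% lower and 0.189% higher). The differences between same-numbered arrays of a strain had one sign in all 6 pairs for 276 of the 307, against 8.57% of all features. These shares are tied to the call, which used the same arrays, and are descriptions only. Called features stood further from the reference than others at the start: the mean ratio at week 0 lay outside ±0.3 in 30.3% of them and in 12.3% of all features. They did not run toward the reference more often, since 59.9% of them moved in the direction of a ratio of 0, against 58.4% of all features.

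The 2 strains give separate sets of arrays for the same question. In C57 alone 77 features changed (0.364%), 68 lower (0.321%) and 9 higher (0.0425%). In C3H alone 153 changed (0.722%), 102 lower (0.482%) and 51 higher (0.241%). Of the 77 features called in C57, 76 had the same sign in C3H, against 58.3% of all features, and 63 had it at an unadjusted p under 0.05, against 6.95%. Their median size was 0.312 in C57, where they were chosen, and 0.270 in C3H. Of the 153 C3H features, 138 went the same way in C57, and 98 did so at an unadjusted p under 0.05, against 5.75% of all features. Their median size was 0.256 in C3H and 0.133 in C57. The lists shared 53 features, 47 lower and 6 higher, which is 68.8% of the C57 list and 34.6% of the C3H list. Over all features, which are not independent of one another, the C57 and C3H changes had a Pearson correlation of 0.183.

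No feature passed the test of a strain difference in the chow change itself. In limma the count was 0 after Benjamini-Hochberg adjustment, 869 features (4.10%) had an unadjusted p under 0.05, and quantile normalization and array weights gave 1 and 2 calls. For feature 299 the change was -0.73 (SE 0.0715) in C57 and -0.63 (SE 0.0715) in C3H, a strain difference of -0.10 (SE 0.101). For feature 6247 it was -0.45 and -0.44 (SE 0.0335 each), a difference of -0.01 (SE 0.0473). The widest gaps among the named features were in rises. Feature 20060 changed by 0.69 (SE 0.143) in C57 and 1.05 (SE 0.143) in C3H, and feature 10890 by 0.24 (SE 0.101) in C57 and 0.59 (SE 0.101) in C3H. Their strain differences were -0.36 (SE 0.203) and -0.35 (SE 0.142), and neither passed the test. Among the 90 rising features the change was larger in C57 in 24, with a median ratio of C57 to C3H of 0.773. Among the 217 falling features it was larger in C57 in 109. Without replicate 1 of C57 at week 40, the array of small spread, the counts were 34 of 90 and 112 of 217, and 1 feature was called for a strain difference. With arrays scaled to one spread they were 35 and 133, and with quantile normalization 35 and 135. The rises larger in C57 numbered 14, their lowest, without replicate 1 of C57 at week 0 and without replicate 3 of C57 at week 40. They were 16 without replicate 2 of C3H at week 40.

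**Figure D2:**
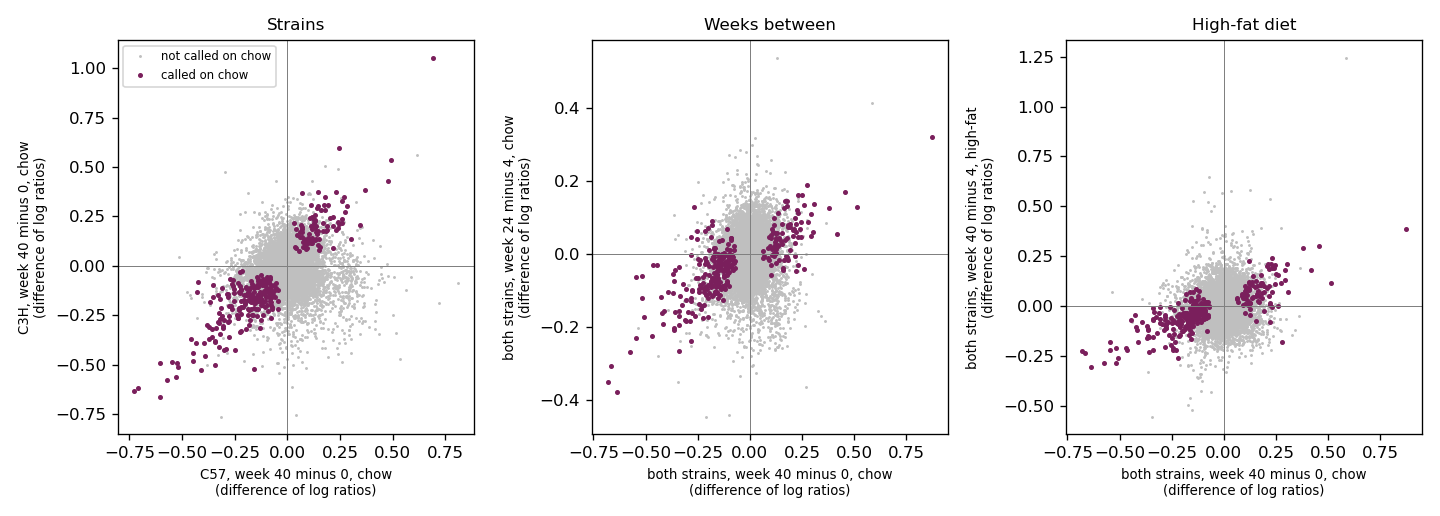
Differences of centred log ratios per feature, with features called on chow in purple and the others in grey. Week 40 minus week 0 on chow is set for C57 against C3H (left), and its mean over strains against week 24 minus week 4 on chow (middle) and week 40 minus week 4 on high-fat diet (right). The axes of each panel share no arrays, and in the middle and right panels 261 and 271 of the 307 called features have the same sign on both axes.

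Whether the change built up between its ends was asked with week 24 minus week 4 on chow, which shares no array with weeks 0 and 40. Here 17 features passed the test (0.0803%), 16 lower (0.0755%) and 1 higher (0.00472%). Of the 307 features, 9 were among them, all lower in both comparisons, which is 2.93% of the 307 and 52.9% of the 17. These were features 299, 1491, 2868, 4153, 9595, 10349, 11462, 21428 and 22474. The sign matched that of the 40-week change in 261 of the 307 features, against 52.6% of all features. It did so in 191 of the 217 falls, with a median of -0.06, and in 70 of the 90 rises, with a median of 0.04. All 17 called features had the same sign over 40 weeks, and 11 had it at an unadjusted limma p under 0.05, against 7.99% of all features. Over 28 alternative analyses the number with a matching sign ran from 236 to 265. The count of 17 calls was less stable: it was 0 with only the arrays of weeks 4 and 24, 0 without replicate 1, 7 without replicate 2, 2 with no replicate term, 11 without replicate 1 of C3H at week 24, and 31 without replicate 3 of C57 at week 4. It was 24 after quantile normalization, with 33.3% of calls higher against 5.88%, and 369 with array weights.

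An order over weeks 4, 8 and 24 alone was kept by a minority of the features. The mean ratio moved in the direction of the 40-week change from week 4 to 8 and again from 8 to 24 in 106 of the 307 features (34.5%), against 16.7% of all features. The order held in 83 of the 217 falls and 23 of the 90 rises. Week 8 minus week 4 had the sign of the 40-week change in 119 falls and 81 rises, against 56.7% of all features. Week 24 minus week 8 had it in 169 falls and 28 rises, against 46.4% of all features. The median of week 24 minus week 8 was -0.06 in the falls and -0.02 in the rises, so most rises did not go on rising then. Over all 5 chow weeks, where weeks 0 and 40 fix the ends, the mean moved one way throughout in 71 features (23.1%), against 2.48% of all. A gradual course at every step was therefore found in a minority.

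The falling features that kept moving between weeks 4 and 24 are well shown by feature 299. Its mean over both strains fell from 0.18 (week 0) to -0.14 (week 4), -0.21 (week 8), -0.49 (week 24) and -0.50 (week 40). Week 24 minus week 4 was -0.35 (SE 0.0505, limma adjusted p 0.000147). Feature 2868 went from 0.76 to 0.56, 0.52, 0.18 and 0.13 over the same weeks, with -0.38 (SE 0.0441, limma adjusted p 5.33e-06) between weeks 4 and 24. Feature 1491 took the smallest first step of these, from 0.07 to -0.07 at week 4, then -0.15, -0.29 and -0.40. Most of the fall of these 3 features lay after week 4, when 47.2%, 32.6% and 29.1% of the 40-week change had been reached.

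Other features had nearly completed their change by week 4. Feature 6247 went from 0.49 at week 0 to 0.10 at week 4, then 0.13, 0.07 and 0.04, so that 87.2% of its change was present at week 4. Week 4 minus week 0 was -0.39 (SE 0.0237, limma adjusted p 2.87e-14) and week 24 minus week 4 was -0.03 (SE 0.0237, limma adjusted p 0.890). Its departure from a straight line in time had a limma adjusted p of 5.02e-13. This early step was present in both strains, with C57 at 0.45 and then 0.07 and C3H at 0.52 and then 0.13.

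Features 6685 and 6999 were low in C57 on chow at week 4, high at week 8 and low again at weeks 24 and 40. Over weeks 0, 4, 8, 24 and 40 feature 6999 averaged 0.27 ± 0.09, -0.14 ± 0.10, 0.29 ± 0.09, -0.14 ± 0.11 and -0.18 ± 0.11 in C57 (SD, n = 3 each). Feature 6685 averaged 0.31, -0.10, 0.30, -0.16 and -0.21 in the same groups. At week 8 the C57 chow arrays were thus back at the week 0 level in both, whereas feature 6999 in C3H stayed low at -0.06. At week 4 the C57 high-fat arrays were not low. Feature 6999 averaged 0.18 there, 0.32 above chow (SE 0.0556, limma adjusted p 0.00326). Feature 6685 averaged 0.23, also 0.32 above chow (SE 0.0551, limma adjusted p 0.00324). That diet difference, a comparison chosen after the data were seen, passed the test in 40 features (0.189%) in C57. In C3H it did so in 1 of 21179. The C57 chow group at week 4 holds replicate 3, an array of small spread (SD 0.160). The residuals of features 6685 and 6999 in the fit correlated at 0.90 over 54 arrays, so they are not separate cases. Each week is a separate set of arrays. A shift of the week 4 or week 8 arrays as a set was not tested. For features 6685 and 6999 weeks 0 and 40 alone do not describe the course in C57.

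Features 20060 and 4202, the largest rises, took their largest step from week 0 to week 4. Feature 20060 averaged -0.08 (week 0), 0.31 (week 4), 0.54 (week 8), 0.63 (week 24) and 0.79 (week 40). Feature 4202 averaged 0.20, 0.54, 0.69, 0.67 and 0.71 over the same weeks and was level from week 8 on. Week 24 minus week 4 was 0.32 (SE 0.101, limma adjusted p 0.373) in feature 20060 and 0.13 (SE 0.0891, limma adjusted p 0.863) in feature 4202. Neither value passed the test, and no rising feature did.

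**Figure D3:**
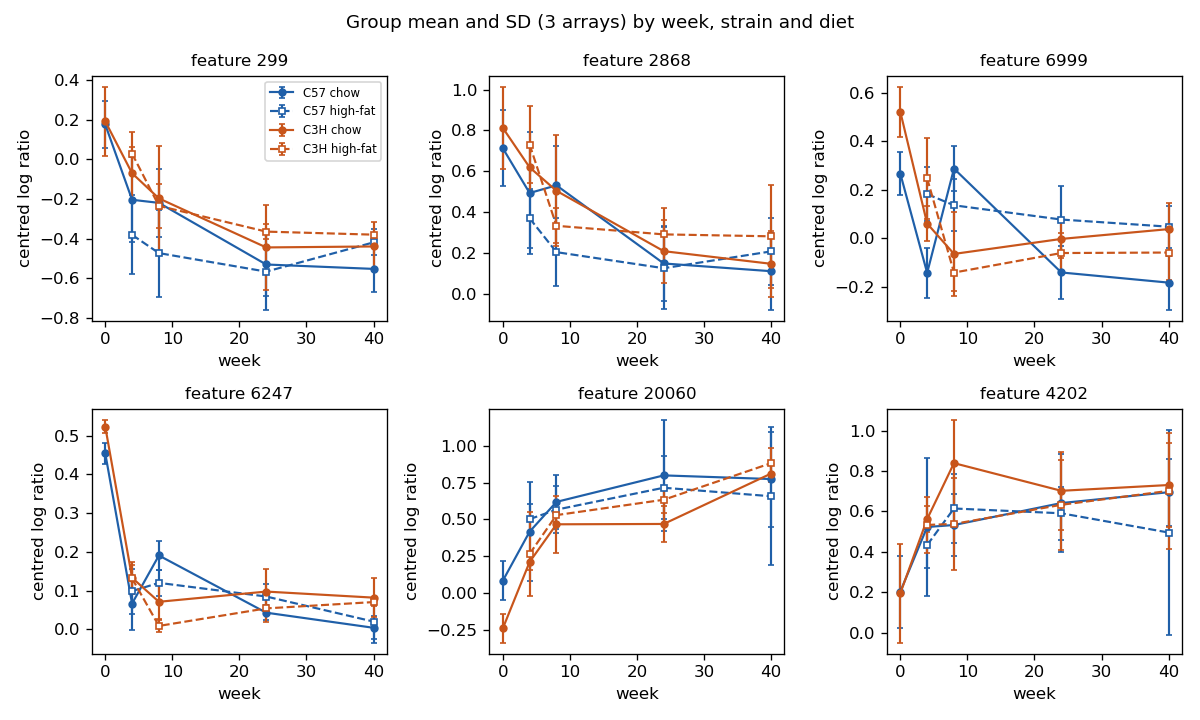
Mean and SD of 3 arrays (centred log ratio, vertical axis) by week (horizontal axis) for 6 features, in C57 (blue) and C3H (orange), on chow (solid lines) and high-fat diet (dashed lines). Features 299 and 2868 go on falling to week 24, and feature 6247 has reached 87.2% of its change by week 4. Feature 6999 is near its week 0 level in C57 on chow at week 8. Features 20060 and 4202 have their largest step from week 0 to week 4.

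Over the called features as a whole, the share of the 40-week change present at each week differed most between falls and rises at week 8. At week 4 the median share was 37.5% in the falls and 51.4% in the rises, at week 8 it was 42.5% and 87.2%, and at week 24 it was 76.5% and 78.4%. Over all features tested, called or not, the median share was 55.6%, 73.4% and 61.7% at these weeks. The median size of their 40-week change was only 0.0307, and the quartiles of the share at week 4 were -32.6% and 142%. A share of so small a change is unsteady, so no conclusion on falls or rises is drawn from this comparison. The largest of the 4 steps was week 0 to 4 in 137 features, 4 to 8 in 25, 8 to 24 in 75 and 24 to 40 in 70. These are 44.6%, 8.14%, 24.4% and 22.8% of the called features, against 35.9%, 19.5%, 21.8% and 22.8% of all features. Among falls the counts were 83, 6, 70 and 58, and among rises 54, 19, 5 and 12. All of these values use the week 0 arrays that also enter the 40-week change, so they describe its timing and do not test it.

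**Figure D4:**
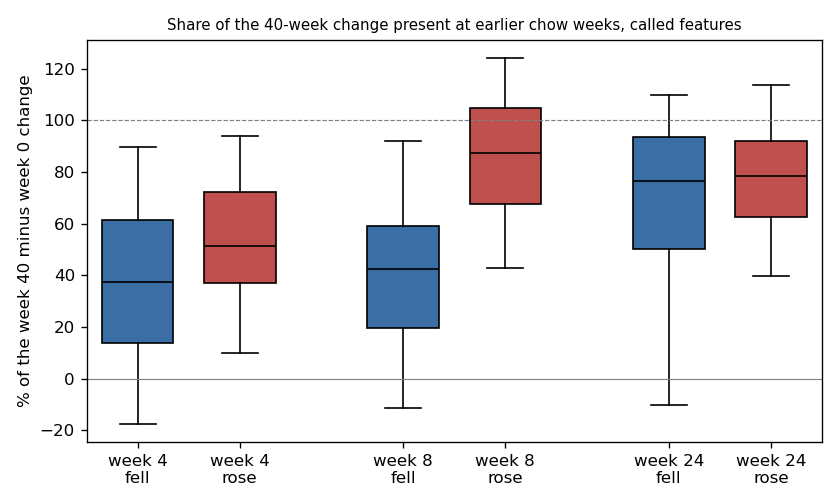
Share of the week 40 minus week 0 change already present at chow weeks 4, 8 and 24 (vertical axis, %), for the 217 falling (blue) and 90 rising (red) features. Boxes show the quartiles and the median, whiskers the 5th and 95th percentiles; at week 8 the median is 42.5% for falls and 87.2% for rises.

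Each later chow week was also set against week 0, in comparisons that share the week 0 arrays with the 40-week change. Week 4 gave 96 calls (0.453%), 50 of them among the 307 features. Week 8 gave 809 (3.82%), 120 of them among the 307, and week 24 gave 175 (0.826%), 126 of them among the 307. Between neighbouring weeks, week 8 minus week 4 gave 4 calls (0.0189%) and none among the 307. Week 24 minus week 8 gave 22 (0.104%), 21 of them lower (0.0992%), of which 16 were falling features of the 307. Week 40 minus week 24, which shares the week 40 arrays, gave 93 calls (0.439%), all lower, of which 13 were falling features of the 307. A straight line over the chow weeks passed the test in 460 features (2.17%), 240 of them among the 307. A departure from that line passed the limma F test in 239 (1.13%) and in 64 of the 307, which were 42 falls and 22 rises. The line and the departure both use the arrays of weeks 0 and 40 by which the 307 were chosen. Counts of both among the 307 are therefore descriptions only.

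Whether the change holds on high-fat diet was asked with week 40 minus week 4 on that diet, since week 0 exists on chow alone. This comparison shares no array with the chow change and covers only the part after week 4. It gave 274 calls (1.29%), 210 higher (0.992%) and 64 lower (0.302%), so the high-fat calls leaned to rises. Over the same weeks on chow, 426 of 21179 features were called, 52 higher and 374 lower. The lean to falls in the chow change from week 0 depended on the scaling, with 49.2% of calls higher after quantile normalization. Of the 307 chow features, 40 were called on high-fat diet with the same sign, 22 lower and 18 higher, and none with the opposite sign. These 40 are 13.0% of the chow list and 14.6% of the high-fat list. The sign matched in 271 of the 307, against 54.3% of all features, in 189 of the 217 falls and in 82 of the 90 rises. The median high-fat change was -0.06 in the falls and 0.08 in the rises. Read the other way, 224 of the 274 high-fat features had the same sign in the chow change, and 97 had it at an unadjusted p under 0.05, against 8.14% of all features.

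The count of matching signs ran from 251 to 279 over 28 alternative analyses. The count of 274 calls was far less stable. It was 3 with only the arrays of the comparison, 21 with no replicate term, 27 and 47 without replicates 2 and 1 throughout, 94 after quantile normalization and 115 with arrays scaled to one spread. It was 855 without replicate 3 of C3H at week 40 on high-fat diet and 435 without replicate 2 of C57 at week 40. It was 177 without replicate 1 of C57 at week 4, 145 and 142 without replicates 2 and 3 of C3H at week 4, and 121 and 125 without replicates 1 and 2 of C3H at week 40.

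A set of 6 features called in the chow change also passed in both comparisons that share no array with it, week 24 minus week 4 on chow and week 40 minus week 4 on high-fat diet. They were features 299, 1491, 2868, 4153, 11462 and 22474, and all 6 fell. Their residuals in the fit correlated pairwise at 0.10 (22474 with 1491) to 0.72 (11462 with 22474, and 2868 with 4153). The 6 are therefore not separate cases. None of them passed in all 3 comparisons with no replicate term, with only the arrays of each comparison or without replicate 1. Of the 6, 1 passed without replicate 2, 3 did so after quantile normalization and 3 with arrays scaled to one spread. Feature 2868 read 0.52, 0.35 and 0.23 in C57 and 0.87, 0.80 and 0.52 in C3H at week 4 on high-fat diet. At week 40 it read 0.35, 0.23 and 0.03 in C57 and 0.39, 0.46 and -0.01 in C3H. The groups overlapped in C57 and not in C3H, and the mean change over both strains was -0.31 (SE 0.0441, limma adjusted p 0.000118). Feature 11462 changed by -0.24 (SE 0.0419, limma adjusted p 0.00164). The change of feature 299 was -0.22 (SE 0.0505, limma adjusted p 0.0169). One sign in all 3 comparisons was found in 231 of the 307 features (75.2%), against 26.8% of all features.

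Among the rises, feature 20060 read 0.39, 0.54 and 0.58 in C57 and 0.59, 0.15 and 0.05 in C3H at week 4 on high-fat diet, and 0.76, 1.06 and 0.14 in C57 and 0.95, 0.93 and 0.77 in C3H at week 40. Replicate 3 of C57 at week 40 was low, at 0.14, and all 3 late C3H arrays were above the early ones. The change was 0.39 (SE 0.101, limma adjusted p 0.0439). Feature 4411 changed by 0.30 (SE 0.0717, limma adjusted p 0.0243). The change of feature 2787 was 0.29 (SE 0.0723, limma adjusted p 0.0305). Of the 24 named features, only 9529 had a high-fat change of opposite sign, at -0.18 (SE 0.0731), which did not pass the test (limma adjusted p 0.210).

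By week 24 on high-fat diet the falls were already visible. Week 24 minus week 4 gave 62 calls (0.293%), 58 of them lower (0.274%) and 24 of them falling features of the 307 and none of them rising ones. The sign matched in 266 of the 307, against 49.8% of all features. The mean of feature 299 over weeks 4, 8, 24 and 40 was -0.18, -0.35, -0.46 and -0.40 on high-fat diet and -0.14, -0.21, -0.49 and -0.50 on chow. Feature 4153 averaged -0.10, -0.40, -0.41 and -0.39 on high-fat diet and -0.14, -0.13, -0.41 and -0.44 on chow. On high-fat diet its mean at week 8 was thus already near that of week 40, and on chow it was not.

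The high-fat change was also fitted within each strain. In C57 week 40 minus week 4 gave 315 calls (1.49%). Of these, 17 were features of the 307 with the same sign, 5 falls and 12 rises. The falling feature 13834 was called with the opposite sign. In C3H it gave 184 calls (0.869%), of which 29 were features of the 307, all with the same sign, 26 falls and 3 rises. The sign matched in C57 in 146 of the 217 falls and 80 of the 90 rises, against 59.3% of all features. In C3H it matched in 192 falls and 73 rises, against 50.1% of all features. The median change of the falling features was -0.04 in C57 and -0.08 in C3H. Feature 4153 read -0.20, -0.33 and -0.45 in C57 at week 4 and -0.26, -0.36 and -0.48 at week 40. In C3H it read 0.20, 0.18 and -0.01 at week 4 and -0.35, -0.27 and -0.62 at week 40. The C57 arrays were low at both weeks, and the C3H arrays were low at week 40 only. The strain difference was 0.49 (SE 0.102, limma adjusted p 0.0267). It passed the test in 5 of the 307 features and in 91 of all (0.430%), in a comparison chosen after its values were seen. For feature 299 the C57 change was -0.04 (SE 0.0715), the C3H change -0.41 (SE 0.0715) and the difference 0.37 (SE 0.101), which did not pass (limma adjusted p 0.0650). Both strains had the sign of the chow change in 197 of the 307 features (64.2%), against 30.0% of all features.

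The diets were compared directly over weeks 4 to 40. The difference between the high-fat and the chow change passed the test in 89 features (0.420%), with the high-fat change above the chow change in 68 (0.321%) and below it in 21 (0.0992%). Of the 307 features 3 were among them, the falling features 6079 and 22540 and the rising feature 21456, each with a high-fat change of the sign opposite to its chow change. The median ratio of the high-fat to the chow change over these weeks was 0.484 in the falling features and 1.10 in the rising ones. This comparison shares the week 40 chow arrays with the 40-week change, with 76.4% of calls higher against 47.4% after quantile normalization and 63.2% after scaling to one spread. Its count ran from 0 to 623 over the analyses that left out arrays.

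At week 40 itself, high-fat and chow arrays differed in 1780 features (8.40%), with the high-fat arrays above chow in 1523 (7.19%) and below in 257 (1.21%), of which 48 were among the 307. Among these 48, the high-fat arrays were higher than chow in 36 falling features and lower in none. Rising features among the 48 were above chow in 8 cases and below it in 4. The size of these 48 differences was at most 0.232. Week 40 on high-fat diet against the week 0 arrays gave 2949 calls (13.9%), 203 of them among the 307 and all 203 with the sign of the chow change. Each of these comparisons shares 6 arrays with the 40-week chow change, so their values are given side by side with it and carry no separate weight.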

How the data were processed

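Aorta RNA was measured on 54 arrays in 18 groups of strain, week and diet, grouped by title. The titles' week 8, which the source field calls week 10, was followed. The deposited values are log ratios, taken as log10 because the deposited table stops at exactly 2 and -2. The sources used here name no dyes, scanner, background correction or normalization. Exact zeros (7895, or 0.682%) were set to not measured. Arrays were centred by subtracting the median over 20694 features with a value on every array. Features needed at least 2 measured values in each group, which left out 267.

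Group means and the replicate number were fitted to all 54 arrays in R 4.3.3 using limma 3.58.1 (two-sided tests from lmFit and eBayes). Benjamini-Hochberg adjustment covered 21179 features, and a feature was called under 0.05. The procedure was tested on simulated data with noise drawn independently for each array and feature. Correlation within a series of strain, diet and number (0.467 in these data) was not simulated, so that test does not vouch for the counts. Named features are the 12 largest falls and 12 largest rises among called features whose difference had one sign in all measured pairs of strain and number, with at least 5 pairs measured. Other features are named where a count of few features needed it, after their values were seen. The platform annotation gives 1 symbol to 17268 features and several to 16. Because same-symbol features did not vary together, no gene names were used and the gene lists drawn up were not tested. The comparison, the members and the lists were chosen with earlier results of these data known. Ratios do not show signal over background. Precision is limited by the number of arrays. Alternatives covered the replicate term, zeros, centring, normalization, filters, weights, the prior and left-out arrays.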

Additional observations from a re-analysis of the deposited data

Results flagged for a closer look

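Among the 307 features called for week 40 minus week 0 on chow, 3 differed between the diets in their change from week 4 to week 40, by a limma test of that difference with Benjamini-Hochberg adjustment. Feature 6079 had a chow change of -0.17 and a high-fat change of 0.05, which differed by 0.22 (SE 0.0451, limma adjusted p 0.0238). Feature 22540 had a chow change of -0.15 and a high-fat change of 0.06, which differed by 0.21 (SE 0.0462, limma adjusted p 0.0411). Feature 21456 had a chow change of 0.13 and a high-fat change of -0.07, which differed by -0.20 (SE 0.048, limma adjusted p 0.0478).

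Another 5 differed between the strains in their change from week 4 to week 40 on high-fat diet, a test added after the values had been seen. Feature 4153 changed by -0.04 in C57 and -0.53 in C3H, which differed by 0.49 (SE 0.102, limma adjusted p 0.0267). Feature 1491 changed by -0.03 in C57 and -0.39 in C3H, which differed by 0.36 (SE 0.0823, limma adjusted p 0.0377). Feature 10527 changed by 0.10 in C57 and -0.20 in C3H, which differed by 0.30 (SE 0.0536, limma adjusted p 0.00943). Feature 10911 changed by 0.02 in C57 and -0.21 in C3H, which differed by 0.23 (SE 0.0559, limma adjusted p 0.0476). Feature 8059 rose, by 0.35 in C57 and 0.11 in C3H, which differed by 0.24 (SE 0.057, limma adjusted p 0.0446). In 4 of these 5 features the C3H change had the sign of the chow change and was the larger one, and in feature 8059 the C57 change was.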

How the results depend on the processing

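Counts are of features called, in the order chow week 40 minus 0, chow week 24 minus 4, high-fat week 40 minus 4, diet difference and departure from a straight line, against 307, 17, 274, 89 and 239. With no replicate block they were 49, 2, 21, 2 and 18. With only the arrays of each comparison they were 173, 0, 3, 3 and 564, and with array weights 1513, 369, 195, 345 and 2797. A block for each series of strain, diet and number gave 413 for high-fat diet and 182 for the diet difference, and as a random block (correlation 0.467) 17 for the diet difference and 148 for the departure. Quantile normalization gave 94 for high-fat diet and 19 for the diet difference. Scaling to one spread gave 115, 19 and 124 for high-fat diet, diet difference and departure. Without the 5 arrays of smallest spread, chosen after seeing the data, high-fat diet gave 143 and the diet difference 59. The strain difference, at 0, gave 1 with quantile normalization, 1 without those 5 arrays and 2 with array weights.

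Leaving out single arrays or a replicate number gave 95 to 316, 0 to 31, 27 to 855, 0 to 623 and 16 to 315, and 0 to 1 for the strain difference. The chow count was 111, 95 and 116 without replicate 1, 2 and 3, each of which also removes 18 arrays. Single arrays moved the diet difference by over 1.5 times in 18 of 24 cases, from 20 (replicate 1 of the C57 week 4 chow group left out) to 623 (replicate 3 of the C3H week 40 high-fat group left out). They moved the departure in 15 of 30, from 80 to 315. The cause of these shifts was not tested. The other alternatives (zeros kept, no centring, either filter, trend and robust eBayes) left each count within 1.5 times.

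Each of the 24 named features was refitted under 28 alternatives. Of 672 results, 622 stayed past the threshold, 50 lost it and 0 changed sign. All 12 falls passed in all 28. Of the rises, features 20060, 4411 and 10890 passed in all 28, and features 20179 and 9529 in 10 and 11. The named features are not all separate cases. The median correlation of their residuals in the fit was 0.38 over pairs of rises and 0.29 over pairs of falls. It was 0.04 over pairs of a rise and a fall. The highest values were 0.87 (20179 with 8106) in the rises and 0.90 (6685 with 6999) in the falls. Same-numbered arrays deviated together in 16 of 18 pairs at a correlation over 0.1 (range -0.13 to 0.67). The labels do not state what the number marks, so how arrays of 1 number are related is not known. Of the 12 arrays, 10 correlated best with an array of their own number.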

Other observations

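Replicate 3 of C57 at week 40 on high-fat diet stood apart in several of the named features. Feature 22451 read 0.89, 0.95 and 0.09 in replicates 1, 2 and 3 of that group, feature 4202 read 0.69, 0.87 and -0.08, and feature 20179 read 1.59, 1.59 and 0.37. The falling feature 22451 and the rising features 4202 and 20179 were thus all low on this array. Over 54 arrays, this one included, their residuals in the fit correlated at 0.83 (22451 with 20179), 0.75 (22451 with 4202) and 0.75 (4202 with 20179). The 3 are therefore not separate cases. Feature 299 read -0.38, -0.49 and -0.38 in the same group and did not stand apart. Leaving out this array gave 380 high-fat calls against 274.

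The called features were found along the whole of the array's numbering, but not in equal numbers. Each of 10 equal stretches held 17 to 46 of the 307, with 2083 to 2144 features tested. The cause of this unevenness was not tested.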
